A study of Mus musculus with 6 samples.

Results

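The genes described here are 8 CXC chemokine genes of mouse bone marrow-derived macrophages, Cxcl1, Cxcl2, Cxcl3, Cxcl9, Cxcl10, Cxcl14, Cxcl16 and Pf4, out of 55401 genes in the deposited table. They were chosen by symbol, as the CXC ligands listed for this work, and each symbol matched a single row. RNA was sequenced in 3 libraries labelled Mettl3-/- (KO) and 3 labelled wild type (WT). Mettl3 is the methyltransferase that places N6-methyladenosine on messenger RNA. In both groups bone marrow of C57BL/6 mice was grown for 7 days in medium with 10% FBS and 40 ng/mL M-CSF, the cytokine that drives macrophage growth. The labels place this culture before a treatment that they do not name, and the sources used here do not give how the allele was made, the age of the mice or whether replicates were separate mice or cultures. The p-values therefore measure only the spread between these libraries, which may be technical.

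CXC chemokines are small secreted proteins that steer leukocytes through G protein-coupled receptors, and they are named for a single residue between their first cysteines. Cxcl1, Cxcl2 and Cxcl3 carry the ELR motif, act on Cxcr2 and draw neutrophils, and macrophages induce them through NF-kB when Toll-like receptors or the interleukin 1 receptor are engaged. Cxcl9 and Cxcl10 act on Cxcr3 of activated T and NK cells and are induced by interferon gamma, Cxcl10 also by type I interferon. Cxcl16 is made as a transmembrane protein that binds Cxcr6 and oxidised lipoprotein and can be shed by ADAM proteases. Pf4, platelet factor 4, is stored in platelet granules and is also transcribed by macrophages, and Cxcl14 is mostly a product of epithelia.

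The promoter of Cxcl10 is shown first because Cxcl10 had the smallest adjusted p of the 8 genes, beside that of its neighbour Cxcl9. Both are RefSeq sequences of build GRCm38.p6, 5′ to 3′ on the minus strand of chromosome 5, with 250 bases before and 50 after the start that RefSeq gives the gene. Capitals mark matches, on either strand, to the core of the interferon-stimulated response element (GAAA, any 2 bases, GAAA), or to the kappa B consensus, which NF-kB binds.
Cxcl10, chr5:92348840-92349139: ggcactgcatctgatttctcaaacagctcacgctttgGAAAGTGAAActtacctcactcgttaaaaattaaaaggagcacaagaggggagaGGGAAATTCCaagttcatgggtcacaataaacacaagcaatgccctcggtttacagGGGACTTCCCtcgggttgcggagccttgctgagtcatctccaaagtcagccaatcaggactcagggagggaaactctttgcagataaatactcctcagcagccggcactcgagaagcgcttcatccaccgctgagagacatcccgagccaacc
Cxcl9, chr5:92328030-92328329: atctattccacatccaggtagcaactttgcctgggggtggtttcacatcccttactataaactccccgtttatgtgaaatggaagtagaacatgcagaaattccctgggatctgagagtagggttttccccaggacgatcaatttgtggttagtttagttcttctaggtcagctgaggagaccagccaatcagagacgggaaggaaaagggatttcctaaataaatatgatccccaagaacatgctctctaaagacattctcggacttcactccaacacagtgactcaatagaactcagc
In the Cxcl10 promoter the interferon response core matched from 213 to 204 bases before the start, and the kappa B consensus matched from 159 to 150 and from 103 to 94 bases before it. Over 32851 RefSeq promoters of this length, 3.44% held the interferon response core and 4.51% the kappa B consensus. A further motif, TTCNNNGAA, to which STAT dimers bind, was in 8.30% of promoters and not in that of Cxcl10. The Cxcl9 window held no exact match to any of these patterns, and neither did that of Pf4. A window without an exact match can still hold a site whose letters differ from the pattern. Sequences were found for 7 of the 8 genes, all but Cxcl16.

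Cxcl1, Cxcl2 and Cxcl3 share a run of 11 bases with kappa B matches close to the start of the gene. It is shown here on the plus strand of chromosome 5 with 10 bases before it. The capitals hold a pair of overlapping matches, 1 on each strand.
Cxcl1, chr5:90891164-90891193: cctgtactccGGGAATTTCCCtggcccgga
Cxcl2, chr5:90903792-90903821: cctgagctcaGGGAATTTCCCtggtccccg
Cxcl3, chr5:90786018-90786047: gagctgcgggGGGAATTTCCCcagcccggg
The run began 71 bases before the start of Cxcl1, 97 before that of Cxcl2 and 73 before that of Cxcl3. The Cxcl14 window on chromosome 13 held 1 interferon response core and 1 TTCNNNGAA. The messages of Cxcl1 and Cxcl2 also carry dense AU-rich elements, which proteins such as tristetraprolin bind to speed decay. The 30 bases of each 3′ UTR with the most copies of ATTTA, in capitals, follow from the GENCODE M21 transcripts.
Cxcl1: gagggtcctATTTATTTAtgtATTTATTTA
Cxcl2: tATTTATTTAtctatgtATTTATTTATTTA
A window with at least as many copies was found in 0.377% of tested genes for the 4 of Cxcl1 and in 0.144% for the 5 of Cxcl2. The whole 3′ UTR held 7 copies in Cxcl1, 11 in Cxcl2 and 5 in Cxcl3, 11.8, 14.99 and 7.75 per kilobase, against a median of 1.20 over 12460 tested genes. Cxcl9, Cxcl10 and Cxcl16 had 3, 2 and 2 copies, 1.22, 2.74 and 1.41 per kilobase, Pf4 had 1 in a 3′ UTR of 123 bases and Cxcl14 had none. A match of letters describes the sequence and does not show a site in use.

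The libraries labelled KO held 68145877 to 77997742 estimated counts and the WT libraries 67280390 to 68658821. Mettl3 itself did not follow the genotype label. It read 2.50, 2.56 and 2.93 FPKM (fragments per kilobase of transcript, scaled to library size) in the libraries labelled KO, against 2.62, 2.91 and 2.26 FPKM in WT, and edgeR put the log2 fold change at 0.02 with an SE of 0.11 (adjusted p = 0.930). The deposited value is a total per gene and does not tell a deleted exon from the rest. Directions are therefore stated for the libraries labelled KO. The macrophage genes Csf1r, Adgre1, Itgam, Cd68, Mrc1, Mertk, Fcgr1 and Cd14 summed to 2581 to 2634 FPKM in the libraries labelled KO and 2471 to 2553 FPKM in WT, and 5 of the 8 were called. Csf1r, the M-CSF receptor, Mertk and Fcgr1 rose by 0.26, 0.32 and 0.44 on the log2 scale, while Adgre1, which encodes F4/80, and Mrc1, the mannose receptor, fell by 0.33 and 0.46. Neutrophil markers summed to 54.5 to 63.7 FPKM in the libraries labelled KO and 63.1 to 68.2 FPKM in WT, with overlapping sums. The largest parts were S100a9, at 29.1 FPKM in labelled KO and 35.5 FPKM in WT, and S100a8. S100a8 averaged 16.8 FPKM in labelled KO and 15.8 FPKM in WT. Ly6g and Retnlg had at most 4 and 12 estimated counts in any library. B cell markers summed to 1.62 to 1.82 FPKM in the libraries labelled KO and 2.03 to 2.15 FPKM in WT. Of 9 tested neutrophil markers Mpo was called higher, at 0.553 FPKM in labelled KO and 0.197 FPKM in WT, and Ltf lower, at 1.33 FPKM in labelled KO and 1.72 FPKM in WT. Stromal and dendritic markers were under 3 FPKM in sum, with overlapping sums, and of 8 tested stromal markers Dcn was called higher, at 0.425 FPKM in labelled KO and 0.260 FPKM in WT. The Mpo call held only without KO replicate 3 or WT replicate 2, the Dcn call only without KO replicate 1 and the Ltf call in none of the 6 fits that left out 1 library. The part of the macrophage, neutrophil, B cell and stromal differences in the results was not tested.

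Of the 8 CXC chemokines, Cxcl10 rose and Pf4 fell in the libraries labelled KO, and the other 6 did not pass the test. All 8 passed the filter on low counts. Calls are those of edgeR's quasi-likelihood test with an adjusted p under 0.05, which took in 12.7% of the 16256 tested genes, 7.01% as higher and 5.67% as lower. The 2 calls are 25% of so short a list, and nothing particular to CXC ligands follows from that share. The median log2 fold change of the 8 genes was -0.10, against -0.0049 over all tested genes. Cxcl9, Cxcl10 and Pf4 had FPKM values that did not overlap between groups, as did 33.8% of all tested genes, 19.1% with higher and 14.6% with lower values in the libraries labelled KO.

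**Figure D1:**
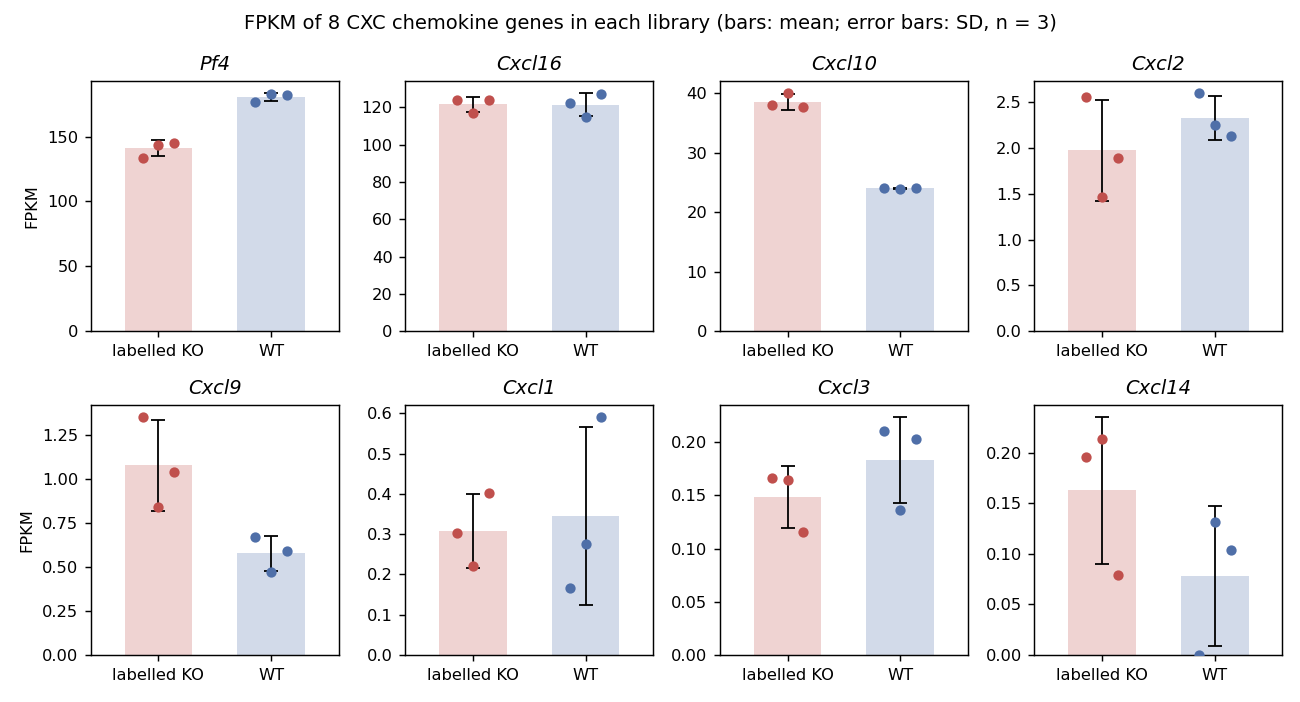
FPKM of each of the 8 CXC chemokine genes (y axis, linear from 0, scaled to each gene) in the 3 libraries labelled KO and the 3 WT libraries; points are libraries, bars the mean and error bars the SD. Cxcl10 reads 37.6 to 40.0 FPKM in labelled KO and 23.9 to 24.1 in WT, Pf4 is lower in labelled KO without overlap, and the points of Cxcl16, Cxcl2, Cxcl1, Cxcl3 and Cxcl14 overlap.

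Cxcl10, the interferon-induced ligand of Cxcr3, was higher in every library labelled KO than in any WT library. In mm10 the gene (ENSMUSG00000034855) takes up 92346638 to 92348882 of chromosome 5, minus strand, and all coordinates here are of that build. It read 38.0, 40.0 and 37.6 FPKM in the libraries labelled KO, against 24.1, 23.9 and 24.0 FPKM in WT. The WT libraries were almost level, with a coefficient of variation of 0.341%, and those labelled KO spread by 3.39%. That difference in spread was not tested. The means were 38.5 ± 1.31 FPKM in labelled KO and 24.0 ± 0.0820 FPKM in WT (SD, n = 3 each). The fold change was 1.59, with 95% limits of 1.49 and 1.69, and on the log2 scale 0.67 (SE 0.037, edgeR adjusted p = 0.000185). Permuting the 6 libraries exactly, two-sided, gave p = 0.1, the smallest that 3 against 3 allows. In GENCODE M21 the coordinates of Cxcl10 differ from those above. There, exons of Art3 on the opposite strand cover 133 of the 2252 annotated exonic bases of Cxcl10. Art3 averaged 0.0299 FPKM in labelled KO and 0.00834 FPKM in WT.

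Cxcl9, the other Cxcr3 ligand measured above 0.5 FPKM on average, had a larger estimated difference on far fewer counts and missed the threshold. Cxcl9 (ENSMUSG00000029417) lies at 92321347 to 92328079 of chromosome 5, on the minus strand like Cxcl10. Its level was 1.36, 0.841 and 1.04 FPKM in the libraries labelled KO, against 0.673, 0.473 and 0.592 FPKM in WT, on 111 to 346 estimated counts. The lowest library labelled KO was above the highest WT library, but the libraries labelled KO differed among themselves by a coefficient of variation of 24.1%. The means were 1.08 ± 0.260 FPKM in labelled KO and 0.579 ± 0.1004 FPKM in WT (SD, n = 3 each). The log2 fold change was 0.87, between 95% limits of 0.34 and 1.41 (SE 0.22, edgeR adjusted p = 0.0520). DESeq2 called it (adjusted p = 0.00682), as did edgeR scaled to library totals alone (adjusted p = 0.0478) and edgeR without KO replicate 2 (adjusted p = 0.0490), whereas no other library left out gave a call (edgeR adjusted p from 0.0809 to 0.143). Cxcl9 and Cxcl10 lie 18.6 kb apart.

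None of 7 markers of T and NK cells, a source of interferon gamma, was called by edgeR or DESeq2, and 1 had an unadjusted p under 0.05 in edgeR, but their summed level did not overlap between groups. They summed to 8.16 to 8.60 FPKM in the libraries labelled KO and 6.90 to 7.24 FPKM in WT. Ifng, which encodes interferon gamma itself, read 0.184, 0.360 and 0.316 FPKM in the libraries labelled KO, against 0.285, 0.407 and 0.371 FPKM in WT (edgeR adjusted p = 0.667). The groups overlap for Ifng. The part of these cells in the Cxcl9 and Cxcl10 values was not tested. In bulk RNA a difference in the number of cells of a type and one in RNA per cell cannot be told apart.

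Pf4 was the most abundant CXC ligand transcript and was lower in the libraries labelled KO. Pf4 (ENSMUSG00000029373), at 90772435 to 90773383 on the plus strand of chromosome 5, read 134, 144 and 145 FPKM in the libraries labelled KO, against 177, 183 and 182 FPKM in WT. Every library labelled KO was below every WT library. The means were 141 ± 6.21 FPKM in labelled KO and 180 ± 3.19 FPKM in WT (SD, n = 3 each). The fold change was 0.772, with 95% limits of 0.722 and 0.826, and on the log2 scale -0.37 (SE 0.041, edgeR adjusted p = 0.00243; exact two-sided permutation p = 0.1). Of the 10 listed megakaryocyte and platelet genes 5 were tested, and edgeR and DESeq2 called 0, with 0 at an unadjusted p under 0.05. Together they reached 1.13 to 2.05 FPKM in the libraries labelled KO and 1.55 to 2.83 FPKM in WT. Of the 5 tested, 4 had lower estimates in the libraries labelled KO, with a median log2 fold change of -0.39. Gp1ba, a subunit of the platelet von Willebrand factor receptor, averaged 0.135 FPKM in labelled KO and 0.213 FPKM in WT without overlap (log2 fold change -0.68, edgeR adjusted p = 0.197). Itga2b, the platelet integrin subunit, was too low to be tested, at 3 to 16 estimated counts. It averaged 0.00905 FPKM in labelled KO and 0.0267 FPKM in WT, also without overlap. Lower values without overlap were found for 14.6% of all tested genes. Gp6 was the tested gene with a higher estimate, and its groups overlap (log2 fold change 0.30, edgeR adjusted p = 0.847). Gp5, a platelet glycoprotein, had a count of 0 in all 6 libraries. Ppbp, the other platelet chemokine and the neighbour of Pf4, read 0.716, 0.657 and 1.26 FPKM in the libraries labelled KO, against 0.837, 1.97 and 1.25 FPKM in WT. The groups overlap for Ppbp (log2 fold change -0.63, edgeR adjusted p = 0.379). The part of platelet-lineage cells in the Pf4 value was not tested.

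Cxcl16 was the second most abundant ligand, and any difference between groups was bounded within a narrow interval. Cxcl16 (ENSMUSG00000018920), at 70453983 to 70459984 on the minus strand of chromosome 11, read 124, 117 and 124 FPKM in the libraries labelled KO, against 122, 115 and 127 FPKM in WT. The groups overlap throughout. The means were 122 ± 3.93 FPKM in labelled KO and 121 ± 6.26 FPKM in WT (SD, n = 3 each), and the 95% limits of the fold change were 0.922 and 1.06 (edgeR adjusted p = 0.878). The log2 fold change of -0.01 took the opposite sign with edgeR scaled to library totals and in limma on FPKM, so no direction is given. Zmynd15 on the opposite strand shares 552 of the 3021 exonic bases of Cxcl16, at 10.8 FPKM in labelled KO and 8.59 FPKM in WT. It was itself called higher (log2 fold change 0.31, edgeR adjusted p = 0.0451). Without a stated strand setting, reads of Zmynd15 and Cxcl16 in the shared bases cannot be told apart. Of the proteases and cofactors that shed the CXCL16 protein, 2 of 5 were called, both higher. Of all tested genes 12.7% were called, 7.01% as higher. Rhbdf2, named after its value was seen, averaged 16.3 FPKM in labelled KO and 20.9 FPKM in WT with overlap. Its log2 fold change was -0.37 (edgeR adjusted p = 0.229). Without KO replicate 1 the list had 2 genes called higher and 1 lower. Adam10, the constitutive sheddase, averaged 37.6 FPKM in labelled KO and 31.5 FPKM in WT (log2 fold change 0.24, edgeR adjusted p = 0.00279), and Adam17, the inducible one, rose by 0.12 on the log2 scale (edgeR adjusted p = 0.0118).

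The neutrophil-attracting ligands were low and none was called. Cxcl2, also known as MIP-2, was the highest of them. Cxcl2 (ENSMUSG00000058427), at 90903871 to 90905938 on the plus strand of chromosome 5, read 2.55, 1.47 and 1.89 FPKM in the libraries labelled KO, against 2.60, 2.25 and 2.13 FPKM in WT. KO replicate 1 was inside the WT range and the other KO libraries below it. The log2 fold change was -0.26, between 95% limits of -0.76 and 0.25 (SE 0.21, edgeR adjusted p = 0.508), which is 0.591 to 1.19 times the WT level. Without KO replicate 1 it was -0.48 and without KO replicate 2 it was -0.09.

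Cxcl1, also called KC, was lower in level. Cxcl1 (ENSMUSG00000029380), at 90891241 to 90893115 on the plus strand of chromosome 5, read 0.303, 0.220 and 0.403 FPKM in the libraries labelled KO, against 0.167, 0.275 and 0.592 FPKM in WT, on 25 to 87 estimated counts. The WT libraries span the whole range of those labelled KO. The log2 fold change was -0.18 (SE 0.50, edgeR adjusted p = 0.863), and without WT replicate 3 it was 0.44. Cxcl3 (ENSMUSG00000029379), at 90786103 to 90789600 on the plus strand of chromosome 5, read 0.166, 0.164 and 0.115 FPKM in the libraries labelled KO, against 0.210, 0.137 and 0.203 FPKM in WT, on 36 to 57 estimated counts. KO replicate 3 was the lowest of the 6 libraries and the groups overlap. For Cxcl3 edgeR gave -0.32 on the log2 scale, with an SE of 0.31 (adjusted p = 0.576). Of the 50-base stretches of Cxcl2 transcripts, 5.84% also occur in Cxcl3, so reads there could be counted for either gene. Of those of Cxcl3, 4.24% occur in another gene, in Cxcl2 or in further genes elsewhere, while Cxcl1 shared none.

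No difference in Cxcl14 was detectable at this depth. Cxcl14 (ENSMUSG00000021508), at 56288643 to 56296551 on the minus strand of chromosome 13, read 0.196, 0.214 and 0.0795 FPKM in the libraries labelled KO, against 0.131 and 0.104 FPKM in WT replicates 2 and 3. WT replicate 1 was listed at a count of 0, and the other libraries had 13 to 31 estimated counts. The log2 fold change of 0.98 had 95% limits of -1.52 and 3.49 (edgeR adjusted p = 0.623), and without WT replicate 1 it was 0.40. Such low estimated counts are not tallies of single reads, since multiples of 4 made up 36.9% to 40.4% of counts from 1 to 20.

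**Figure D2:**
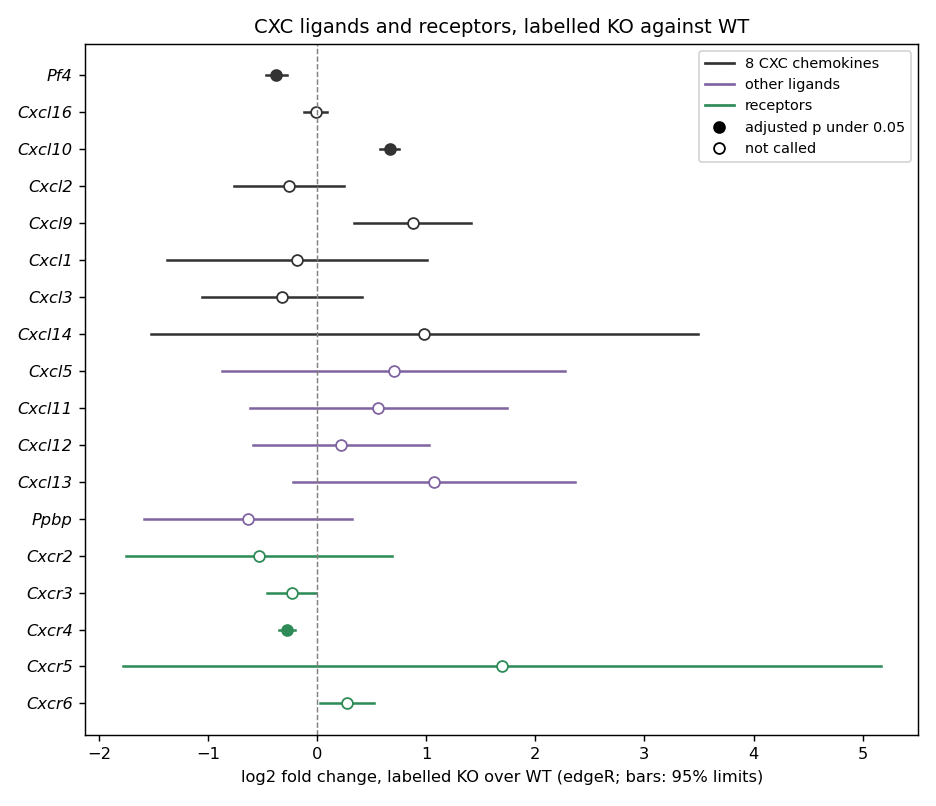
Labelled KO over WT, as a log2 fold change (x axis), for the 8 CXC chemokine genes, the other tested CXC ligands and the tested CXC receptors, from edgeR on 3 libraries each; lines are 95% limits and filled points have an adjusted p under 0.05. Cxcl10 is filled at 0.67, Pf4 at -0.37 and Cxcr4 at -0.28, the interval of Cxcl16 is narrow around 0, and those of Cxcl14 and Cxcr5 are the widest.

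By level, FPKM set Pf4, Cxcl16 and Cxcl10 far above the rest in both groups. In the libraries labelled KO the order was Pf4, Cxcl16, Cxcl10, Cxcl2, Cxcl9, Cxcl1, Cxcl14 and Cxcl3, and the ranges of neighbours overlapped only for Cxcl14 and Cxcl3. In WT it was Pf4, Cxcl16, Cxcl10, Cxcl2, Cxcl9, Cxcl1, Cxcl3 and Cxcl14, with overlap between Cxcl9 and Cxcl1 and between Cxcl1 and Cxcl3. Mean Pf4 was 1.16 times mean Cxcl16 in labelled KO and 1.49 times in WT. Among all genes of a library, Cxcl10 ranked from 1107 to 1181 by FPKM in the libraries labelled KO and from 1831 to 1843 in WT.

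The pool of CXC ligand transcripts shifted in make-up. Summed over 15 ligand genes (the 8 and Cxcl5, Cxcl11, Cxcl12, Cxcl13, Cxcl15, Cxcl17 and Ppbp) it was 302, 306 and 312 FPKM in the libraries labelled KO, against 328, 327 and 339 FPKM in WT. Cxcl10 made up 12.6% ± 0.525 of that sum in labelled KO and 7.25% ± 0.137 in WT, and Pf4 46.0% ± 1.45 in labelled KO and 54.5% ± 1.18 in WT (SD, n = 3 each). The 12 ligands other than Pf4, Cxcl16 and Cxcl10 together made up 1.497% to 2.06% in any library. These shares restate the levels above on another scale and were not tested. FPKM summed over all tested genes was also lower in the libraries labelled KO, at 317110 to 318078, against 327978 to 330283 in WT. The part of that difference in the lower ligand sum was not tested.

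**Figure D3:**
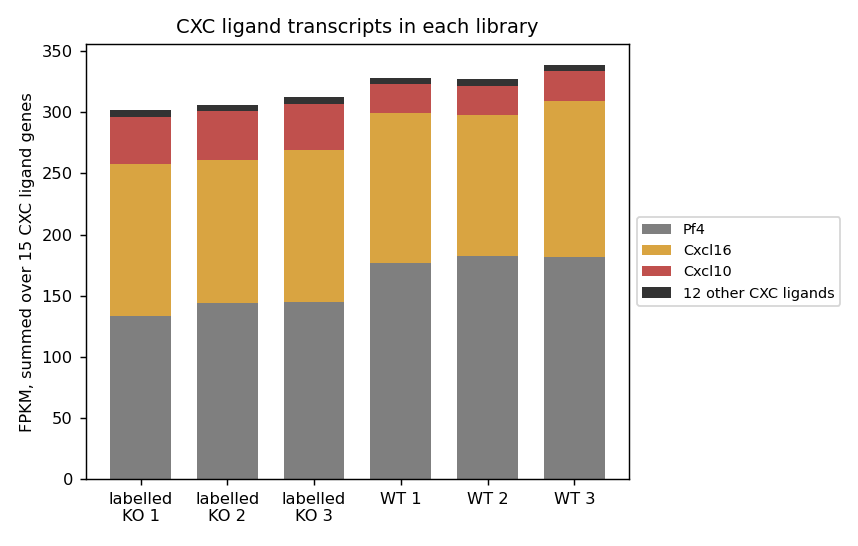
FPKM summed over 15 CXC ligand genes (y axis) in each of the 3 libraries labelled KO and 3 WT libraries (x axis), stacked by gene. Pf4 and Cxcl16 fill most of every bar, the Cxcl10 segment is taller in labelled KO (12.6% of the sum against 7.25% in WT), and the whole bar is lower in labelled KO.

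Of the other 7 CXC ligands 5 were tested, and edgeR and DESeq2 called 0, with 0 at an unadjusted p under 0.05. Their log2 fold changes ran from -0.63 for Ppbp to 1.07 for Cxcl13, the B cell chemoattractant, which averaged 0.406 FPKM in labelled KO and 0.187 FPKM in WT (edgeR adjusted p = 0.271). Cxcl15 and Cxcl17 had a count of 0 in all 6 libraries. Of the 8 CXC and atypical receptors, 5 were tested and 1 was called. Cxcr4, the receptor of Cxcl12, averaged 74.2 ± 2.07 FPKM in labelled KO and 88.7 ± 1.69 FPKM in WT (SD, n = 3 each; log2 fold change -0.28, edgeR adjusted p = 0.00313). The receptors of the ligands above, named after their values were seen, did not pass the adjusted threshold. Of the 5 tested receptors, 3 had an unadjusted p under 0.05 in edgeR, namely Cxcr4, Cxcr3 and Cxcr6. FPKM values of Cxcr3 and of Cxcr6 did not overlap between groups, as for 33.8% of all tested genes. Cxcr3 averaged 6.09 FPKM in labelled KO and 7.07 FPKM in WT (log2 fold change -0.23, edgeR adjusted p = 0.174), Cxcr6 2.06 FPKM in labelled KO and 1.68 FPKM in WT (0.27, edgeR adjusted p = 0.155), and Cxcr2 0.201 FPKM in labelled KO and 0.289 FPKM in WT (-0.53, edgeR adjusted p = 0.575).

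Genes of the pathways that induce these ligands differed in direction. In the interferon gamma list 6 of 12 genes rose and 0 fell, with a median log2 fold change of 0.42. Gbp2 and Gbp5, interferon gamma-induced GTPases, rose by 0.46 and 0.79, Ciita, the master regulator of MHC class II, by 0.79 and Nos2, the inducible nitric oxide synthase, by 0.52 on the log2 scale. In the type I interferon list 1 of 14 genes rose and 4 fell, with a median of -0.07. Usp18, which damps signalling from the interferon receptor, fell by 0.56, Rsad2 by 0.39, Ifit2 by 0.20 and Ifit3 by 0.18 on the log2 scale. The gene that rose, Ifnar2, a chain of the type I interferon receptor, was named after its value was seen (0.12), and it was no longer called when any library but WT replicate 1 was left out (edgeR adjusted p from 0.0714 to 0.0894).

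In the list of NF-kB subunits and feedback genes 2 of 12 rose and 0 fell, with a median of 0.07. Nfkb1, the p105 precursor of p50, rose by 0.17, and Nfkbiz, a nuclear cofactor, by 0.30 on the log2 scale. Leaving out any of the 6 libraries ended the Nfkbiz call (adjusted p from 0.0695 to 0.129, edgeR), and the list then had 1 called gene, or 2 without WT replicate 3. The list of NF-kB-induced cytokines also holds the enzyme gene Ptgs2. Of 10 tested genes in that list 2 rose and 5 fell, with a median of -0.06, and 5 to 7 were called with 1 library left out. Il1b rose by 0.83, while the CC chemokine genes Ccl2, Ccl7 and Ccl4 fell by 0.42, 0.61 and 0.60 on the log2 scale. The other gene that rose was Ptgs2, named after its value was seen (0.48). Ptgs2 was no longer called when any library but WT replicate 3 was left out (edgeR adjusted p from 0.0638 to 0.120). In the list of factors that bind or stabilise chemokine messages, 3 of 8 rose and 0 fell, with a median of 0.14. Zfp36l1 rose by 0.21 and Zfp36l2 by 0.14, both relatives of tristetraprolin, and the ribonuclease gene Zc3h12a by 0.19 on the log2 scale. Tristetraprolin itself, encoded by Zfp36, averaged 34.9 FPKM in labelled KO and 37.1 FPKM in WT without overlap (log2 fold change -0.11, edgeR adjusted p = 0.0619), and DESeq2 called it lower (adjusted p = 0.0409). Zc3h12a was no longer called when any library but KO replicate 2 was left out (edgeR adjusted p from 0.113 to 0.135). These calls are edgeR's at an adjusted p under 0.05. Over all 8 lists 36.6% of tested genes were called, against 12.7% of all tested genes, 7.01% as higher and 5.67% as lower. The lists were chosen with earlier results of these data known, so nothing about a pathway follows from that share.

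**Figure D4:**
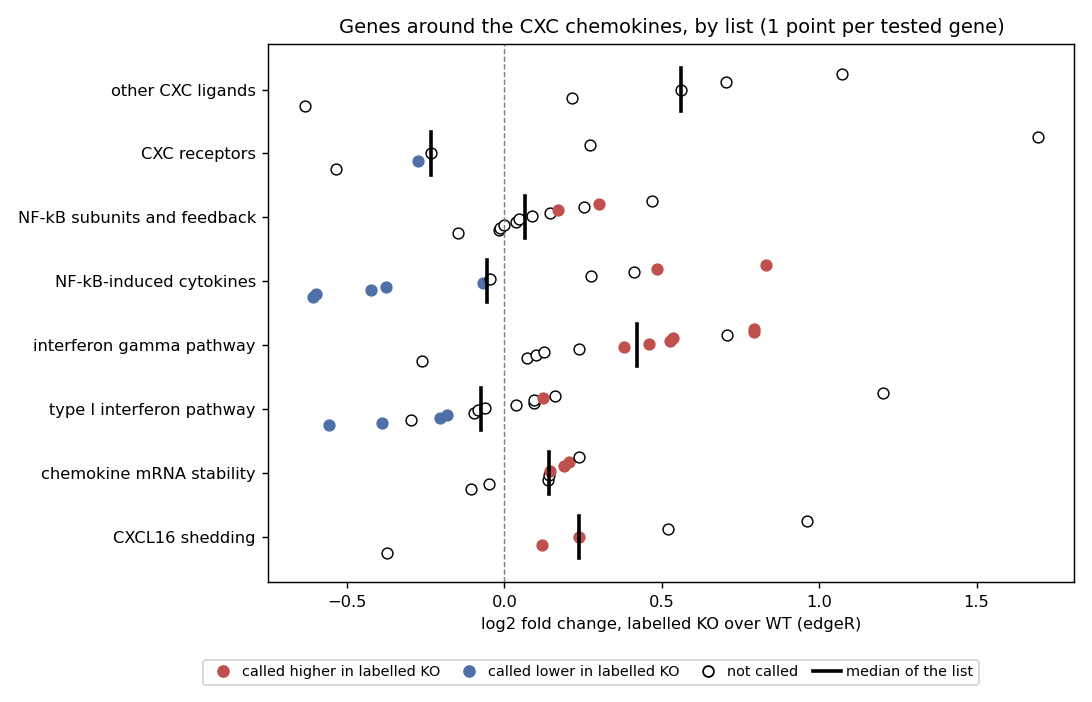
Labelled KO over WT, as a log2 fold change from edgeR (x axis), for the tested genes of 8 lists around the CXC chemokines (y axis); each point is a gene, red or blue where called higher or lower, and black bars are list medians. The interferon gamma list lies mostly to the right, with a median of 0.42, and the NF-kB-induced cytokines hold called genes on both sides of 0.

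The other tested genes near the chromosome 5 clusters were called by neither edgeR nor DESeq2, and 1 of the 10 had an unadjusted p under 0.05 in edgeR. Pf4, Cxcl3, Cxcl1 and Cxcl2 lie within 134 kb, where with 200 kb on either side 3 further genes were tested, with log2 fold changes from -0.63 to 0.70. Around Cxcl9 and Cxcl10, which span 27.5 kb, 7 further genes were tested, from -0.05 to 0.56. The highest of these, named after its value was seen, was Cxcl11, a polymorphic pseudogene in GENCODE M21, at 0.212 FPKM in labelled KO and 0.141 FPKM in WT (edgeR adjusted p = 0.540). The window was set after the values were seen.

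**Figure D5:**
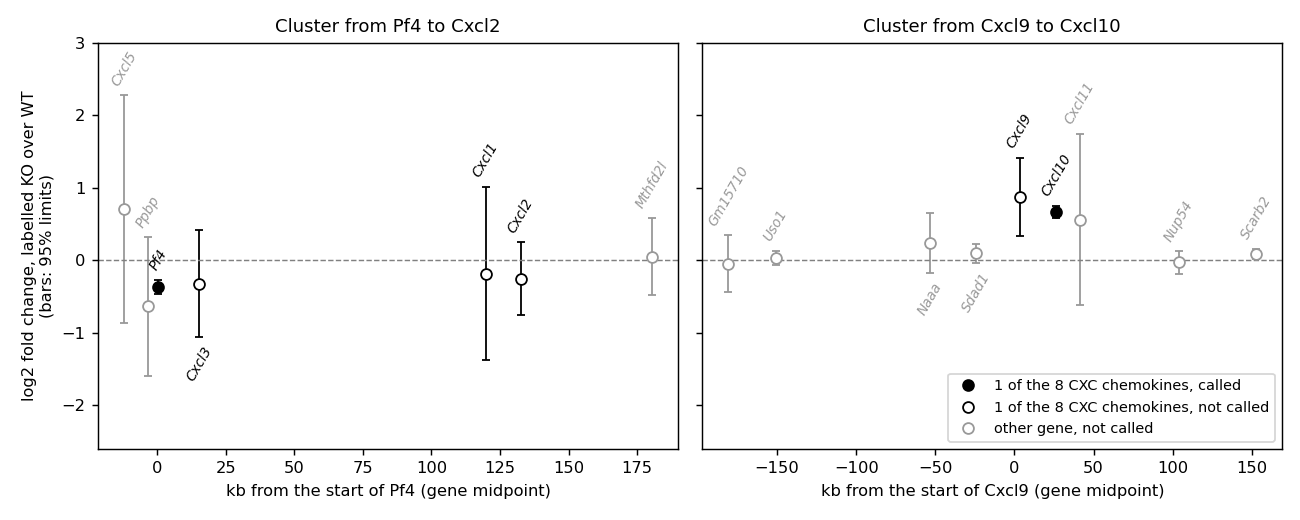
Labelled KO over WT, as a log2 fold change from edgeR with 95% limits (y axis), against distance of the gene midpoint from the start of Pf4 or of Cxcl9 in kilobases (x axis), for the tested genes within 200 kb of each cluster. Filled points are called: Pf4 at -0.37 in the left panel and Cxcl10 at 0.67 in the right, with the other genes open.

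The patterns most like those of the called ligands were sought over the 6 libraries, as the smallest root mean square difference of centred log2(FPKM + 0.1) among 9305 genes. For Cxcl10 these were AW112010, at 979 FPKM in labelled KO and 617 FPKM in WT (root mean square difference 0.0278), the MHC class II gene H2-Eb1 (0.0342) and the zinc finger gene Zkscan17 (0.0350). For Pf4 the nearest were Gm21399 (0.0189) and the kinase gene Camk1 (0.0261). With 6 libraries in 2 groups, likeness mostly means a group difference of like size.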

How the data were processed

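RNA from 3 libraries labelled KO and 3 labelled WT was compared. Libraries were made from poly(A) RNA, per the labels' protocols. The submitters' processing notes name StringTie 1.3.4d, HISAT2 2.0.4, cutadapt 1.9 and build mm10; settings, strand and annotation release: not given in the sources used here. Per the file headers, the authors deposited FPKM per gene and library and an estimated count per gene, as whole numbers; genes at a count of 0 carry an FPKM of 0.0001.

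Estimated counts were tested, as whole numbers, with edgeR 4.0.16 in R 4.3.3 (TMM, filterByExpr with a minimum count of 10 and total of 15, quasi-likelihood test, Benjamini-Hochberg over 16256 genes; checked on simulated data). The SE is the log2 fold change over the root of F, and limits come from the t distribution. Permutation tests used log2(FPKM + 0.1). The 8 genes and all lists were chosen with earlier results of these data known. Named genes are the 8, Mettl3, up to 4 called genes per list by adjusted p (or the 2 with the highest FPKM), and the 3 nearest patterns of the 2 called ligands; exceptions are stated, and some items are not reported here. Motif, ATTTA and neighbour searches were added after values were seen. Alternatives were DESeq2 1.42.0, other scalings and filters, limma 3.58.1 on log2 FPKM with pseudocounts of 0.1, 1 and 0.01, a replicate block and each library left out. Promoters are from RefSeq, transcripts and exons from GENCODE M21, both GRCm38.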

Additional observations from a re-analysis of the deposited data

How the results depend on the processing

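Cxcl10 stayed higher and Pf4 lower, both called, under every alternative with a test, with log2 fold changes of 0.64 to 0.68 and -0.40 to -0.34. Cxcl9 stayed higher and crossed the threshold under DESeq2 (0.87), edgeR with library totals (0.89) and the replicate block (0.86), and ran from 0.68 to 1.02 with 1 library left out. Cxcl16 changed sign with library totals (0.0028) and in limma with a pseudocount of 0.1 (0.0032, with and without a filter), 1 (0.0031) or 0.01 (0.0032), and ran from -0.052 to 0.022 with 1 library left out; Cxcl1 ran from -0.51 to 0.44, and was 0.44 without WT replicate 3. The cause was not tested. Cxcl1, Cxcl3 and Cxcl14 were under the filter of the limma fits with a filter, and DESeq2 gave Cxcl14 no adjusted p. All genes called numbered 2060, 1244 to 1339 with 1 library left out, which leaves fewer samples, and 1012 with the replicate block. In the list of NF-kB subunits and feedback genes DESeq2 called 5, against 2 in edgeR, and in the list of factors that bind or stabilise chemokine messages it called 3 higher and 1 lower, against 3 and 0 in edgeR. DESeq2 and left-out libraries were added for the marker genes after seeing the data. Deviations of same-numbered libraries from their group means correlated at -0.02 to 0.02 over all tested genes. With 3 libraries per group this cannot settle whether the replicate numbers pair the samples. The block changed no other call among the 8 genes. Estimated counts under 100 limit Cxcl1, Cxcl3 and Cxcl14.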
